A study of Mus musculus with 3 samples.

Results

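The 10 genes described here, Sox9, Wt1, Gata4, Gata1, Amh, Amhr2, Fshr, Inha, Clu and Dhh, are marker and effector genes of Sertoli cells, the somatic nurse cells of the seminiferous tubule. They were chosen by gene symbol. All 10 were in the deposited table of transcript models, where 17 of 50081 models carried one of these symbols. The series held 3 libraries from testes of wild-type C57BL/6J mice, 1 by CAGE at 10.5 days post partum, 1 by CAGE from adults and 1 by PAS-Seq from adults, and the labels do not say what each library gave to the models. CAGE marks the capped 5′ end of an RNA and PAS-Seq the polyadenylated 3′ end. The table gave 1 set of models for the whole series, with positions and exons but no value per library, so neither ages nor expression levels could be compared. The labels give testes as the source and the table names no cell type, so the cells in which a model was transcribed cannot be told apart. The depth of the libraries is unknown.

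Sertoli cells receive follicle-stimulating hormone, build the blood-testis barrier and support every stage of germ cell development. SOX9 drives their differentiation in the fetal gonad, with WT1 and GATA4 acting in the same network, and AMH, inhibin and Desert hedgehog are signals they send to other cells. Wt1 and Gata1 have well known transcript variants in the mouse: Wt1 is spliced in several ways, and Gata1 has a distal first exon that is used in testis.

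Of the 17 models, 7 were assembled models, which carry a gene symbol together with a CUFF identifier, as Cufflinks names its transcripts, and 10 were RefSeq-derived, 1 for each gene. The 7 assembled models belonged to 5 genes, Wt1, Gata4, Gata1, Fshr and Dhh. Sox9, Amh, Amhr2, Inha and Clu had their RefSeq model alone. In the table, 39.4% of the 13968 comparable genes (those with a RefSeq model on 1 chromosome and strand and with a model code other than XX) had an assembled model, and 5 of 10 lies near that share. All 17 models had a code that began with NM, a label that none of the sources used here explains, while 62.3% of all 22421 genes with a RefSeq model had a code other than XX. A RefSeq model in the table is not a measure of expression. The comparisons below set the assembled models of these genes beside their RefSeq models, and no test was made, because models of 1 gene share a source and are not replicates.

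**Figure D1:**
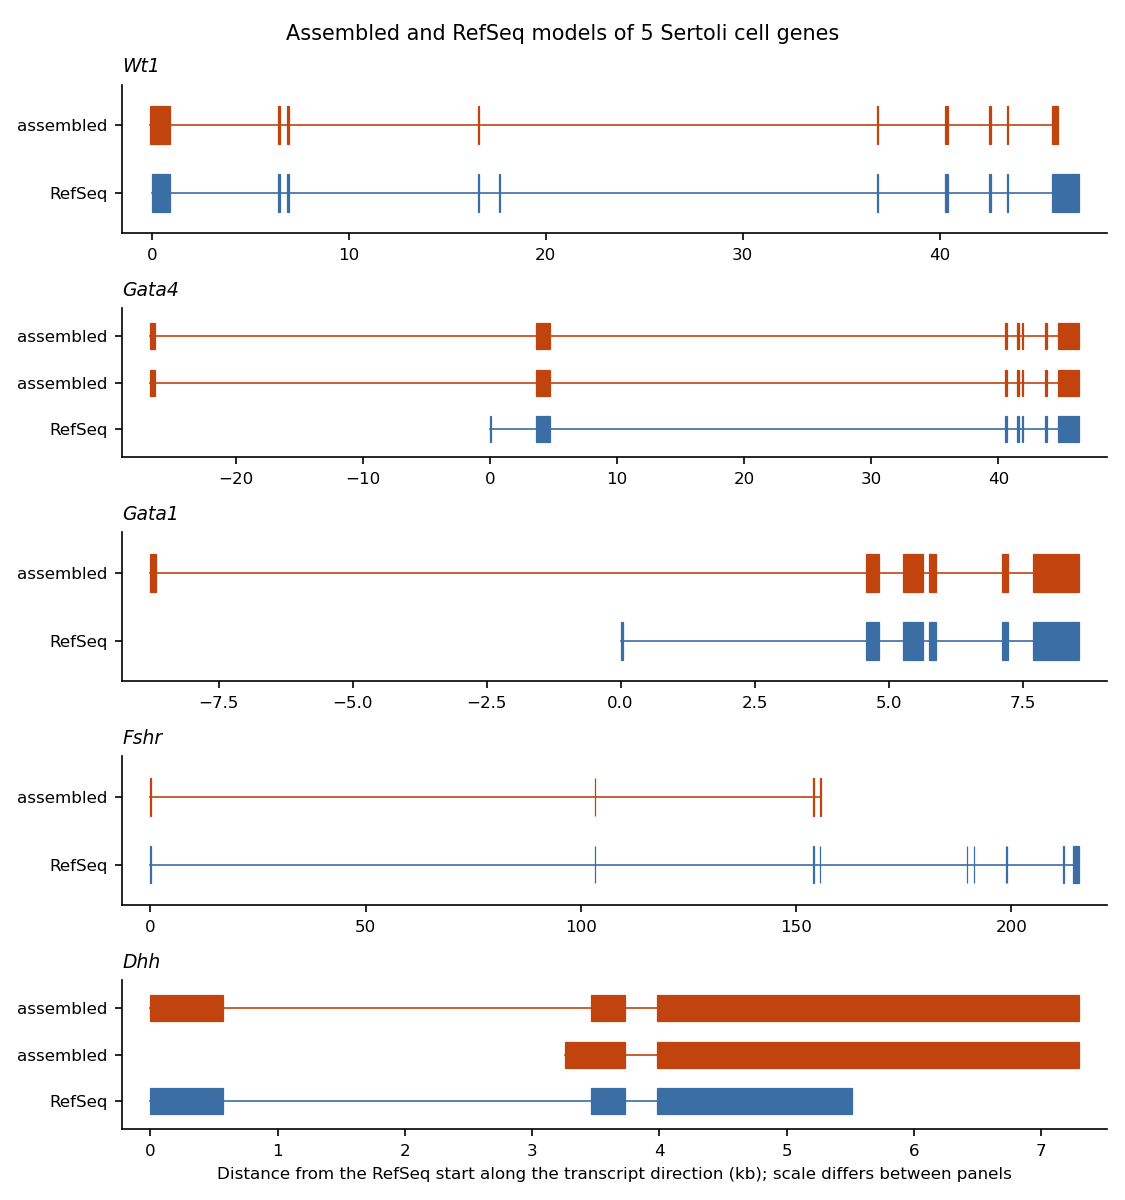
Exon chains of the assembled models (orange) and the RefSeq models (blue) of Wt1, Gata4, Gata1, Fshr and Dhh, drawn to scale along the transcript in kb from the RefSeq start, with exons as boxes and introns as lines. The assembled models of Gata4 and Gata1 begin 26714 and 8776 nt upstream of the RefSeq start, that of Fshr stops 59958 nt short of the RefSeq end, and those of Dhh run 1784 nt past it.

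3 start regions are shown as sequence, because the models of Wt1 and Gata1 differ from RefSeq in where they begin, and those of Fshr share 1 start and differ in where they end. The sequences are RefSeq promoter windows of the GRCm38.p6 build, from 250 bases before to 50 bases after an annotated start, and 5 of the 10 genes had a window (Gata1, Amhr2, Fshr, Inha and Dhh), as did Wt1os, the current symbol of AI314831. The model table is in another build, mm9, so the windows were matched by gene and not by position. The Wt1os window (chr2:105126461-105126760, minus strand) also holds the start of Wt1, which lies on the other strand. Its capitals mark the 18 bases between the RefSeq starts of Wt1 and Wt1os. The Fshr window (chr17:89200626-89200925, minus strand) has in capitals its 1 match to the E-box CACGTG and its 2 matches to GATAA, the second of which reads TTATC on the printed strand. The Gata1 window (chrX:7967861-7968160, minus strand) has in capitals its 3 matches to the GC box GGGCGG, of which 2 overlap. This window lies at the inner annotated start, 8753 bp from the outer 5′ edge of the gene in that build. It does not show the start of the assembled Gata1 model, which lies 8776 nt upstream of RefSeq.
Wt1os: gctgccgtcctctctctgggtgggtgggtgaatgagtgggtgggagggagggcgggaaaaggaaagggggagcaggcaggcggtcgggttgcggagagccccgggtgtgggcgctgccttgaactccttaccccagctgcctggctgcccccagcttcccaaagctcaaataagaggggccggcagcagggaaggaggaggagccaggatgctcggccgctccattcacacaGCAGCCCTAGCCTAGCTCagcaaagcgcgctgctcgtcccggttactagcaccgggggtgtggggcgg
Fshr: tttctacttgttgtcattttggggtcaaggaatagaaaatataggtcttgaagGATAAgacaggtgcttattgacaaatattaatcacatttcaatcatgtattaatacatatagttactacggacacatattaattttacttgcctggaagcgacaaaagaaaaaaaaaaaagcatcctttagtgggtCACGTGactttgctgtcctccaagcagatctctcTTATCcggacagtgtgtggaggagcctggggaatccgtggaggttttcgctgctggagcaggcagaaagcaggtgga
Gata1: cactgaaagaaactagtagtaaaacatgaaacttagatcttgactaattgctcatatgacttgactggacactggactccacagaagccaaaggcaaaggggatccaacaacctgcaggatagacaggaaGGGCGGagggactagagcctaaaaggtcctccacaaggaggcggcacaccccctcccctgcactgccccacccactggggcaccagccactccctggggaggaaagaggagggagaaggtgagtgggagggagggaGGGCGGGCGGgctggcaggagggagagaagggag

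The motifs searched, on both strands of the 32851 windows, were the TATA box TATAAA, the E-box CACGTG, the GC box GGGCGG, the GATA motif GATAA and the CCAAT box. TATAAA was in none of the 5 Sertoli gene windows or the Wt1os window and in 13.6% of all windows. The E-box of Fshr began 61 bases before the start, and 7.15% of all windows held one. GATAA was in 3 of the 5 gene windows and in 25.4% of all windows. It began 197 and 27 bases before the start in Fshr, 199 in Amhr2 and 221 in Dhh. The GC box was in 35.7% of all windows, with 4 matches in Dhh, 3 in Gata1, 2 in Wt1os, 1 in Amhr2 and none in Fshr or Inha. CCAAT was in the Inha window, in none of the other 5 windows and in 37.4% of all windows. Matches of different motifs did not overlap in these 6 windows. GC content was 66.7% in the Wt1os window, 61.7% in Dhh, 57.3% in Gata1, 55.3% in Amhr2 and in Inha, and 40.7% in Fshr, against a median of 52.7% over all windows. A match is a string of letters and was not tested as a binding site.

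Among the transcription factors, Wt1, which encodes a zinc finger protein needed for gonad formation and for Sertoli cell identity, had 1 assembled model that differed from RefSeq at both ends and at 2 splicing choices. The assembled model had 9 exons and 2040 nt on chromosome 2 (104966606 to 105012699, mm9, plus strand), against 10 exons and 3092 nt for the RefSeq model (104966686 to 105013771). It skipped RefSeq exon 5, which is 51 nt long, or 17 codons. It also used a donor site 9 nt further upstream at RefSeq exon 9, so that this exon was 84 nt in the assembled model and 93 nt in RefSeq, a difference of 3 codons. In mouse and human Wt1 these are the 2 textbook splicing choices, and the second adds or omits the residues lysine, threonine and serine (KTS) between the last zinc fingers. The assembled chain is therefore the form without either insert, and the RefSeq chain the form with both. Of its 8 introns, 6 were identical to RefSeq introns. Donor sites 9 nt apart were found in 34 of 6320 comparable genes with at least 2 intron chains (0.538%).

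The assembled Wt1 model began 80 nt upstream of the RefSeq start and ended 1072 nt before the RefSeq end, both in shared terminal exons. Its last exon was 320 nt, against 1392 nt in RefSeq. Over all 8660 assembled models of the table set against RefSeq models of their gene, 32.6% began more than 50 nt upstream of the outermost RefSeq start, and 46.4% ended more than 50 nt short of the outermost RefSeq end. For those that began upstream, the median distance was 328 nt.

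Wt1 was the 1 gene of the 10 with a head-to-head neighbour, defined as a start on the other strand that lies upstream by 1 to 500 bp, and 16.4% of the comparable genes had one. The neighbour, AI314831, is an annotated noncoding RNA. Its assembled model (104934070 to 104966748, minus strand) had 3 exons and 6827 nt, against 7 exons and 3267 nt for its RefSeq model (104916695 to 104966667). The assembled model began 81 nt upstream of the RefSeq start and ended 17375 bp before the RefSeq end, in a last exon of 6386 nt, and its 2 introns were both RefSeq introns. The RefSeq starts of Wt1 and AI314831 lay 19 bp apart, with 18 bases between them. The assembled models of both genes thus began further upstream than their RefSeq models, and upstream for each gene means into the other. The assembled models overlapped each other by 143 bp, the assembled AI314831 model overlapped the RefSeq Wt1 model by 63 bp, and the assembled Wt1 model overlapped the RefSeq AI314831 model by 62 bp. The RefSeq pair had no overlap. Wt1 was also the 1 gene of the 10 with an exon overlap on the other strand, which 16.5% of comparable genes had. In the GRCm38.p6 annotation the 2 starts are also 19 bp apart, and the printed window runs far enough upstream of the Wt1os start to take in a start 81 nt upstream, but not far enough into the transcript for one 80 nt upstream of Wt1.

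**Figure D2:**
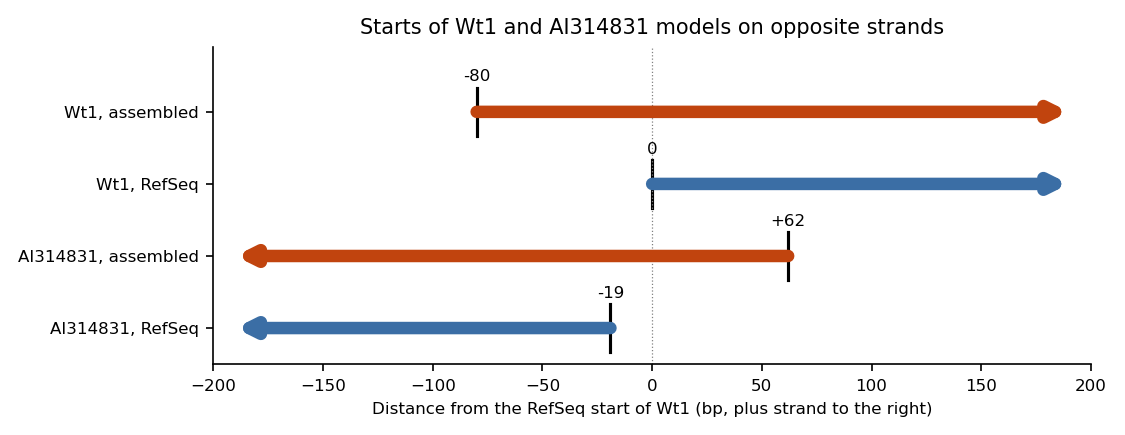
Starts of the assembled (orange) and RefSeq (blue) models of Wt1 and AI314831, in bp from the RefSeq start of Wt1, with arrows in the direction of transcription and black ticks at the starts. The RefSeq starts are 19 bp apart and face away from each other, while the assembled models overlap by 143 bp.

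A single-exon model with no gene symbol, CUFF.14981.1 (2416 nt, 104961915 to 104964330), lay on the strand of AI314831 and inside an intron of its RefSeq model. It began 2337 bp past the AI314831 RefSeq start and did not reach Wt1. Past the end of Wt1 the next model was 0610012H03Rik, 50727 bp away on the same strand.

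Gata4, a zinc finger factor of somatic gonad cells, had 2 assembled models that began at 1 distal first exon. Both ran from 63890811 to 63817752 on the minus strand of chromosome 14, and the RefSeq model ran from 63864097 to the same end. The start of the assembled models lay 26714 nt upstream of RefSeq, and 121 of the 8660 assembled models (1.40%) began at least this far upstream. The distal first exon was 391 nt and had no RefSeq counterpart, and the RefSeq first exon of 110 nt was absent from both. The distal exon was joined to RefSeq exon 2, of 1110 nt, across an intron of 29938 bp, against 3505 bp for the first intron of RefSeq. From exon 2 onward CUFF.8130.3 was identical to RefSeq. CUFF.8130.2 differed from it by 3 nt, or 1 codon, at the acceptor of exon 3, which was 170 nt there and 167 nt in the other 2 models. Acceptors 3 nt apart were found in 455 of 6320 genes with at least 2 intron chains (7.20%). The 3 models shared an end and a last exon of 1637 nt, and their spliced lengths were 3677 and 3674 nt for the assembled models and 3393 nt for RefSeq.

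Gata1, a GATA factor best known from blood cells and also made by mouse Sertoli cells, had the same layout. Its assembled model (X, 7536386 to 7553717, minus strand) began 8776 nt upstream of the RefSeq start at 7544941, and 350 of 8660 assembled models (4.04%) began at least as far upstream. A first exon of 112 nt took the place of the RefSeq first exon of 49 nt, and an intron of 13238 bp, against 4525 bp in RefSeq, led to the shared exon 2. The other 4 introns, the end and the last exon of 869 nt were those of RefSeq. The spliced lengths were 1870 nt for the assembled model and 1807 nt for RefSeq. Whether this exon is the known testis first exon of Gata1 was not tested.

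The GRCm38.p6 RefSeq annotation, which is more recent than the models in the table, gives longer genes at both loci. Its Gata1 gene spans 17404 bp, 72 bp longer than the assembled model and 8848 bp longer than the RefSeq model of the table. Its Gata4 gene spans 72799 bp, 261 bp shorter than the assembled models, at 73060 bp, and 26453 bp longer than the RefSeq model of the table. At which end the later Gata4 span is longer was not examined. The printed Gata1 window belongs to the inner start, since in that build the gene reaches 8753 bp further upstream. The start of that window lies 8651 bp from the far edge of the gene, against a span of 8556 bp for the RefSeq model in the table. The 3′ edges were not compared between the builds, so whether the 2 inner starts are the same was not tested. For Wt1, AI314831, Fshr and Sox9 the spans of the RefSeq models were the same in both annotations.

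Sox9, the HMG-box factor that commits the fetal gonad to the testis fate, had 1 model of 3 exons (806, 254 and 3086 nt) on chromosome 11 (112643524 to 112649071, plus strand). Its last exon made up 74.4% of its 4146 nt. The nearest model upstream was BC006965, 70853 bp away on the other strand, and the nearest downstream was a model of 4933434M16Rik, 37426 bp away. Of the comparable genes, 5.55% had both neighbours at least 37426 bp away, and the median distance to the nearer neighbour was 647 bp. No assembled or antisense model touched Sox9.

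Among the hormones and ligands, Dhh, which encodes Desert hedgehog, the Sertoli signal received by Leydig and peritubular cells, had an extended 3′ end and an internal start. Its 2 assembled models and its RefSeq model were on the minus strand of chromosome 15. Both assembled models ended at 98721674, which is 1784 nt past the RefSeq end at 98723458, and 893 of 8660 assembled models (10.3%) ended at least this far beyond RefSeq. The last exon was 3318 nt in the assembled models, against 1534 nt in RefSeq. It is the longest last exon of the 10 genes, at the percentile of 87.1 among comparable genes. CUFF.9677.1 kept the RefSeq start at 98728971 and both RefSeq introns and had 4151 nt, against 2367 nt for RefSeq. CUFF.9677.2 began at 98725716, which is 3255 nt inside the gene. Its first exon was 473 nt and consisted of RefSeq exon 2, of 262 nt, with 211 nt of the preceding intron, so it lacked the first RefSeq exon of 571 nt. Dhh has 3 exons, the first of which encodes the start of the protein. The next model downstream on the same strand was CUFF.9672.1, a single exon of 1048 nt with no symbol that lay 3961 bp beyond the extended end. The GRCm38.p6 annotation gives Dhh a span of 16948 bp, against 7298 bp for the longer assembled model and 5514 bp for the RefSeq model in the table. At which end the later span is longer was not examined, so it does not bear on the extended 3′ end.

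Amh, which encodes the hormone that removes the Müllerian ducts in male fetuses, had 1 RefSeq model of 5 exons and 1665 nt on chromosome 10 (80267993 to 80270393, plus strand). It was the shortest gene of the 10, at 2401 bp, and its introns ran from 87 to 373 bp. The splicing factor gene Sf3a2 ended 325 bp upstream of the Amh start on the same strand, and Jsrp1 ended 847 bp beyond the Amh end on the other strand. The nearer neighbour was at least 325 bp away for 54.4% of comparable genes, with a median of 647 bp. Inha, which encodes the inhibin alpha subunit that restrains pituitary FSH, had 2 exons (442 and 1021 nt) and an intron of 1815 bp on chromosome 1 (75503652 to 75506929, plus strand). Obsl1 began 625 bp away on the other strand, so Inha had a divergent neighbour with a window of 1000 bp and none with 500 bp. Within 1000 bp, 2 of the 10 genes and 18.6% of comparable genes had such a neighbour.

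Of the receptors, Fshr, through which FSH acts on Sertoli cells, had a truncated assembled model. The assembled model (chromosome 17, 89444250 to 89600015, minus strand) had 4 exons and 598 nt over 155766 bp, against 10 exons and 2360 nt over 215724 bp for the RefSeq model (89384292 to 89600015). Both began at the same base, and the 3 introns of the assembled model were the first 3 of RefSeq. The first intron, the longest, was 103079 bp in both, and 3.23% of comparable genes had an intron at least as long, against a median of 6995 bp for the longest intron of a gene. The last assembled exon was RefSeq exon 4, of 75 nt, with 161 nt of the following intron, 236 nt in all. The assembled model ended 59958 nt short of the RefSeq end, and 191 of 8660 assembled models (2.21%) ended at least as far short. It lacked RefSeq exons 5 to 10, including exon 10 of 1443 nt, which encodes the membrane-spanning part of the receptor. All 8 internal exons of RefSeq Fshr, of 69 to 186 nt, were multiples of 3 nt, against 39.7% of 124787 internal exons of comparable genes. Over the 10 genes 23 of 46 were multiples of 3 nt (50%), and these 23 include the 8 of Fshr. The internal exons of Fshr encode the leucine-rich repeats of the hormone-binding domain.

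A single-exon model with no symbol, CUFF.12214.1 (555 nt, 89491057 to 89491611), lay on the other strand inside the second Fshr intron, of 50605 bp, and overlapped no Fshr exon. Together with Wt1 this made 2 of 10 genes whose span was overlapped from the other strand, against 23% of comparable genes. The nearest gene past the Fshr end was Lhcgr, the receptor for luteinizing hormone, on the same strand and 192958 bp away. Amhr2, the type II receptor for AMH, had 1 RefSeq model of 11 exons and 1947 nt on chromosome 15 (102275798 to 102285070, plus strand), the most exons of the 10 genes. Its last exon was 427 nt. Its neighbours Sp1 and Prr13, both on the same strand, lay 8962 bp upstream and 4530 bp downstream.

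Clu encodes clusterin, a secreted chaperone-like glycoprotein that Sertoli cells make in abundance. Its 1 RefSeq model had 9 exons and 1808 nt on chromosome 14 (66587320 to 66600382, plus strand). The last exon was 238 nt, the shortest when each gene is taken by its longest last exon, at the percentile of 6.94 among comparable genes, and made up 13.2% of the transcript. Both neighbours, Scara3 upstream by 14738 bp and Gulo downstream by 5241 bp, lay on the other strand.

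**Figure D3:**
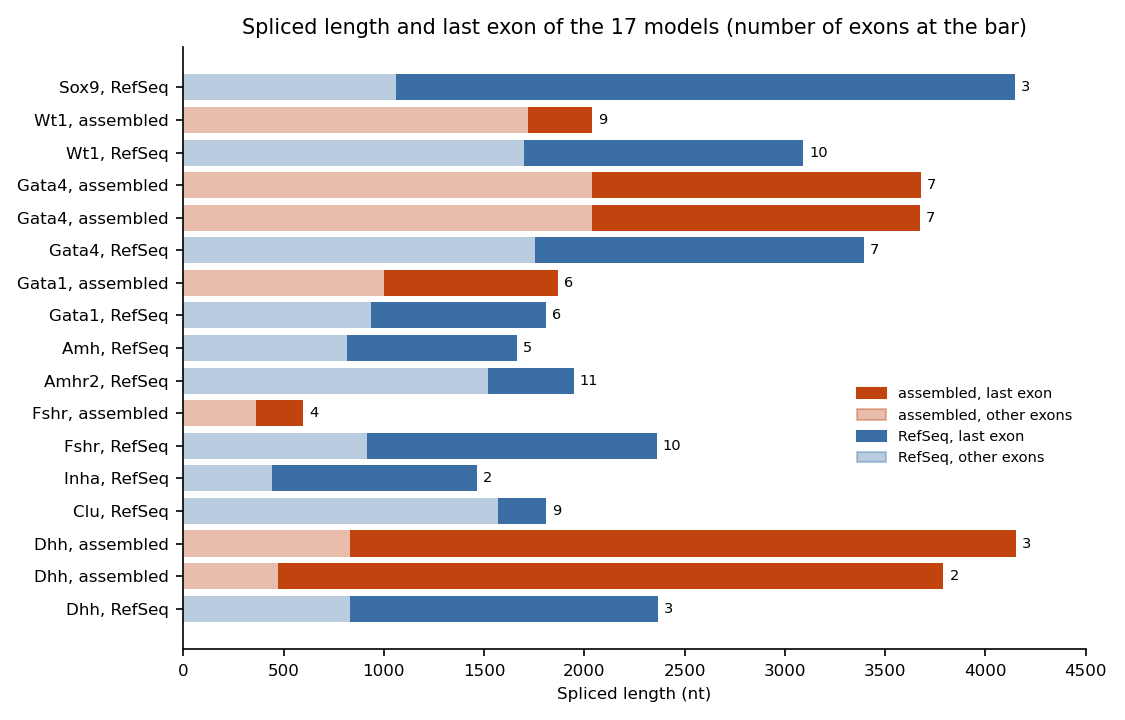
Spliced length in nt of each of the 17 models, with the last exon in full colour and the other exons pale, assembled models in orange, RefSeq models in blue, and the number of exons at the end of the bar. The assembled models of Dhh reach 4151 and 3791 nt, against 2367 nt for RefSeq, and the assembled model of Fshr is the shortest at 598 nt.

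Over the 10 genes, last exons had a wide range with an ordinary middle. The longest last exon of a gene ran from 238 nt for Clu to 3318 nt for Dhh, with a median of 1206.5 nt over the 10 genes and 1206 nt over the comparable genes. The median of the longest spliced length was 2153.5 nt over the 10 genes and 2784.5 nt over the comparable genes. With starts or ends within 50 nt counted as 1, the 10 genes had 14 starts and 13 ends. Wt1, Gata4, Gata1 and Dhh had 2 starts each, so 4 of 10 genes had more than 1, against 35.8% of comparable genes. Wt1, Fshr and Dhh had 2 ends each, so 3 of 10 had more than 1, against 32.4%. These shares lie near the background and set the genes apart in neither direction.

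The direction of the changes varied among the 7 assembled models. At the start, 4 began more than 50 nt upstream of RefSeq, 2 within 50 nt and 1 downstream. The 4 include both Gata4 models, which share 1 start. Over all 8660 assembled models these shares were 32.6%, 24.0% and 43.4%. At the end, 2 ran more than 50 nt beyond RefSeq, 3 lay within 50 nt and 2 stopped short. The 2 that ran beyond are the Dhh models, which share 1 end. Over all 8660 assembled models these shares were 24.8%, 28.8% and 46.4%. The changes were at the start only for Gata4 and Gata1, at the end only for Fshr and for the longer Dhh model, and at both for Wt1 and for the shorter Dhh model. Each assembled model kept at least 1 RefSeq intron.

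**Figure D4:**
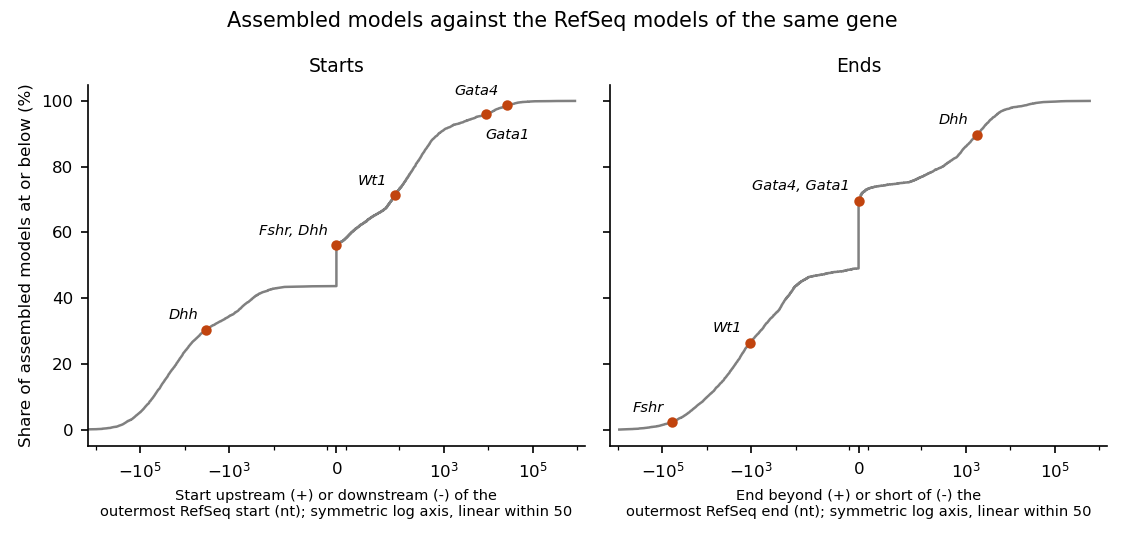
Cumulative share in % of the 8660 assembled models of the table (grey line) by the distance in nt of their start or end from the outermost RefSeq start or end of the same gene, on a symmetric log axis, with the 7 assembled models of the Sertoli cell genes as orange points. Gata4 and Gata1 lie near the upstream edge of the starts, at 26714 and 8776 nt, and Fshr near the lower edge of the ends.

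Genes that act with these 10 were taken from 4 lists of 47 genes in all, of which 46 were in the table. Rhox5 was not found under that or a synonym. Of the 46, 38 had a code other than XX. Among these 38, 21 had an assembled model (55.3%), 18 more than 1 start (47.4%) and 14 more than 1 end (36.8%), against 39.4%, 35.8% and 32.4% of comparable genes. None of the 38 had a head-to-head neighbour within 500 bp, against 16.4% of comparable genes. The lists were small, their members were chosen with earlier results known, and these shares were not tested.

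**Figure D5:**
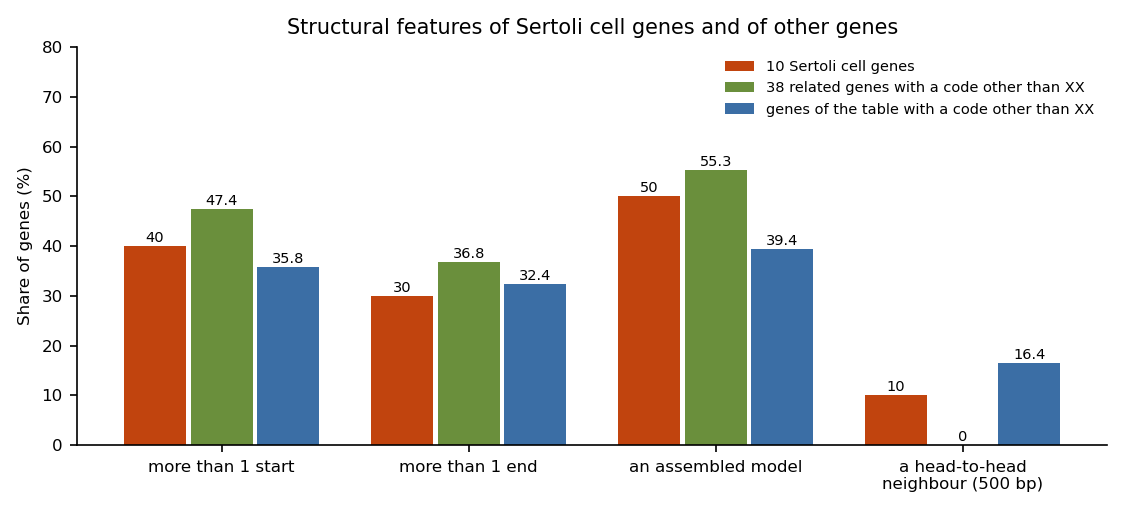
Share of genes in % with each structural feature, for the 10 Sertoli cell genes (orange), the 38 related genes with a code other than XX (green) and the 13968 genes of the table with such a code (blue). The orange bars stand at 40, 30, 50 and 10%, and the blue bars at 35.8, 32.4, 39.4 and 16.4%.

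In the Desert hedgehog pathway, 8 of 10 genes had a code other than XX, and 5 of these 8 (62.5%) had an assembled model, against 39.4% of comparable genes. Ptch1, the hedgehog receptor, had an assembled model that began 730 nt upstream of RefSeq and ended 3016 nt beyond it, and a second that began 31714 nt downstream and had the same end. The models of Gli1, a transcription factor and target of the pathway, included one with a start 4616 nt inside the gene, and Gli2 had one with a start 212980 nt inside it. Sufu, an inhibitor of the GLI factors, had an assembled end 3037 nt short of RefSeq. Smo, Gli3, Hhip, Hhat and Disp1 had RefSeq models alone, the last pair coded XX. Ends beyond RefSeq were therefore seen for the ligand gene Dhh and for its receptor gene Ptch1.

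In AMH, inhibin and activin signalling, 10 of 13 genes had a code other than XX, and 3 of these 10 (30%) had an assembled model, against 39.4% of comparable genes. Inhba and Inhbb, whose products pair with the inhibin alpha subunit, and the AMH type I receptor genes Acvr1 and Bmpr1a had no assembled model. Bmpr1b, Acvr2b and Smad9 were coded XX. The activin receptor gene Acvr2b had an assembled model that ended 8408 nt beyond RefSeq, with a last exon of 8648 nt, and Acvr1b had one that ended 1078 nt beyond. Smad4, the common SMAD, had an assembled model that began 609 nt upstream and ended 36859 nt short, with 3 exons, and Smad1 had one that began 42935 nt downstream. Smad5 had 2 starts from RefSeq models alone.

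Among fate factors and partners of GATA4 and WT1, 8 of 11 genes had a code other than XX, and 5 of these 8 (62.5%) had an assembled model, against 39.4% of comparable genes. The assembled starts of Gata6, Zfpm1, Zfpm2, Nr5a1 and Sox10 lay downstream of RefSeq. The last of these genes is coded XX. The starts were at 31622 nt for Gata6, 50635 nt for Zfpm1, 87411 and 440843 nt for Zfpm2, 3557 nt for Nr5a1 and 661 nt for Sox10. Zfpm1 and Zfpm2 encode cofactors of GATA proteins, and Nr5a1 encodes SF1, a nuclear receptor of steroidogenic and Sertoli cells. No assembled model in this list began more than 50 nt upstream of RefSeq, unlike those of Gata4, Gata1 and Wt1, the last by 80 nt. Over all 8660 assembled models, 32.6% began more than 50 nt upstream and 43.4% more than 50 nt downstream. The list has few models, and this contrast was not tested. Sox8, a relative of Sox9, had an assembled end 234 nt short of RefSeq. Sry, Nr0b1, Dmrt1 and Fgf9 had 1 model each, and Lhx9 had 3 RefSeq models with 2 starts and 2 ends.

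Among other Sertoli products and junction genes, all 12 genes found had a code other than XX, and 8 of them (66.7%) had an assembled model, against 39.4% of comparable genes. The assembled model of Shbg, which encodes the androgen-binding protein of Sertoli cells, began 293 nt upstream of RefSeq and ended 506 nt beyond it. Ptgds, a prostaglandin synthase gene, began 586 nt upstream and ended 159 nt beyond, and Ctsl, which encodes cathepsin L, began 207 nt upstream and ended 822 nt short. Gdnf, a ligand for spermatogonial stem cells, had an assembled start 4331 nt inside the gene, and the assembled model of Kitl, the ligand of KIT on germ cells, began 13 nt upstream of RefSeq with the RefSeq end. Espn, which encodes an actin-bundling protein of the Sertoli cell junctions, had 9 models with 5 starts and 2 ends, and Tjp1, a tight junction gene, had 3 models with 2 starts and 2 ends. Cldn11, Trf, Cst9 and Gja1 had 1 RefSeq model each.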

How the data were processed

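The deposited data were 1 headerless BED table of 12 columns for the whole series, with 1 transcript model per line. Its values are positions in bp and numbers and lengths of exons. The submitters' processing notes name TopHat2 2.0.4 and the build mm9. The part that CAGE reads, PAS-Seq reads and RefSeq had in the models is not stated by the labels or notes, and no read count or other value per library was analysed, so the depth is unknown.

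Members were the models whose symbol was one of the 10 genes, and positions are counted from 1. Starts no more than 50 nt apart counted as 1, likewise ends. A head-to-head neighbour had its start 1 to 500 bp upstream on the other strand, and an antisense overlap was at least 1 bp of exon. Assembled models were set against the outermost RefSeq start and end of their symbol. The background was 22421 genes with a RefSeq model on 1 chromosome and strand, 5 symbols with several places being left out, and mainly the 13968 of them with a code other than XX. The 8660 assembled models came from all 22421 genes, those coded XX included. Each of the 10 genes had 1 RefSeq model, while some background genes had several, for which the outermost start or end was taken. The counts of starts and ends and the calls of head-to-head neighbours and antisense overlaps were checked on simulated models with Python 3.11.15. The other measures were not checked in this way. Promoter windows, later gene spans and synonyms came from RefSeq tables of GRCm38.p6. No test was made: there was 1 library per group and no value per library. The rule for named genes took all 10 members, their neighbours and the members of 4 related lists with more than 1 start or end, an assembled model or a head-to-head neighbour. A few related genes without these are also named, and a few list members are counted but not reported here by name. The members and lists were chosen with earlier results of these data known. The alternatives tried changed the tolerance, the window, the kinds of model and the overlap.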

Additional observations from a re-analysis of the deposited data

How the results depend on the processing

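Of 25 alternatives, 21 left the count or median within 1.5 times the value reported. These 21 include the 14 starts and 13 ends, which both fell to 10 with RefSeq models only. That is the lowest count possible for 10 genes, so these 2 alternatives could not have left the range. With RefSeq models only, the number of the 10 genes with more than 1 start fell to 0, against 4, and with more than 1 end to 0, against 3, because each gene had 1 RefSeq model. With a window of 1000 bp, 2 genes had a head-to-head neighbour, against 1, the second being Inha. With any overlap of spans, 2 genes had an antisense overlap, against 1, the second being Fshr. With a tolerance of 100 nt the upstream start of Wt1 merged with the RefSeq start, and 3 genes had more than 1 start. No paired analysis was possible because each group had 1 library and no value per library was analysed. Depth could not be weighed, and models that were not assembled are not shown to be absent from the tissue.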
